A study of Mus musculus with 11 samples.

Results

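Messenger RNA levels were compared between mouse embryonic stem cells (ESCs) that lack Dicer (Dcr KO, 3 separate lines numbered 1, 3 and 4, with 1 library each) and wild-type ESCs (Dcr WT, 2 libraries numbered 1 and 2). Both genotypes carry the strain label 129S4/SvJae and were kept without feeder cells on gelatin. All 5 libraries are paired-end, strand-specific and poly(A)-selected. They are 5 of the 11 samples of the series, and its cMyc and chromatin libraries were not analysed here. The mRNAs were taken as the rows of the deposited expression table that its authors tagged as coding RefSeq transcripts, 19683 of 48942 rows. Of these, 19362 matched a gene symbol. The labels give no treatment, age, sex or clonal origin for the lines, and the sources used here do not say which part of Dicer1 was deleted.

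Dicer cuts hairpin precursors into mature microRNAs of about the length of those printed here, and microRNAs loaded into Argonaute proteins lower the stability and translation of the mRNAs they pair with. Pairing rests mainly on the seed, bases 2 to 8 of the microRNA. Without Dicer, ESCs lose nearly all mature microRNAs, and such cells are known to keep dividing slowly and to differentiate poorly. Mature microRNAs were not measured in these poly(A) libraries. The sequences of 5 microRNAs that ESCs are known to make in abundance are shown because they are the molecules that the knockout removes (RefSeq, GRCm38.p6, seed in capitals). The first 3 come from 1 cluster on chromosome 7 and share the seed AAGUGCU; the other 2 come from 1 cluster on chromosome 14 and share AAAGUGC, which is the same motif moved by 1 base.
mmu-miR-291a-3p: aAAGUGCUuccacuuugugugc
mmu-miR-294-3p: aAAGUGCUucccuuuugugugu
mmu-miR-295-3p: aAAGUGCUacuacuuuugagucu
mmu-miR-17-5p: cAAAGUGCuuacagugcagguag
mmu-miR-20a-5p: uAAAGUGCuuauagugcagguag

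All values below are normalised read counts as deposited, given for lines 1, 3 and 4 of Dcr KO and then for libraries 1 and 2 of Dcr WT. Depth ran between 247574902 and 278006158 reads in Dcr KO, against 101815723 and 206721717 in Dcr WT, so that 1 read was worth 0.764 to 0.887 in Dcr KO and 2.01 and 0.913 in Dcr WT. Dicer1, the targeted gene, had 8553, 9793 and 7743 in Dcr KO, against 20131 and 18792 in Dcr WT. It fell by 1.17 on the log2 scale (SE 0.15, limma adjusted p = 0.000556), and the reads that were left cannot be assigned to an intact or a shortened transcript. Of 12 ESC markers, 1 was called, downwards, and their summed count was 1172724 to 1380817 in Dcr KO and 1139055 to 1354982 in Dcr WT, with Pou5f1, Esrrb and Nanog at the highest values. Of 9 primitive endoderm markers, 4 fell, with a summed count of 3294 to 4379 in Dcr KO and 4944 to 9797 in Dcr WT. Of 8 trophoblast markers, 3 rose and 2 fell, with 57642 to 70591 in Dcr KO and 50742 to 55864 in Dcr WT; without Tfap2c, the highest of them, the sums were 14863 to 32783 in Dcr KO and 23360 to 36267 in Dcr WT. In these bulk samples, fewer cells that make an mRNA and less of it per cell cannot be told apart.

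Loss of Dicer went with changes in both directions across the mRNAs. In Dcr KO, 3415 (20.9%) of 16322 tested mRNAs were higher and 3737 (22.9%) lower at an adjusted p under 0.05 (limma). In each of the 5 fits that left out 1 library, 1826 of those higher (53.5%) and 1826 of those lower (48.9%) were called again, and the counts of this kind given for groups are to be read against these shares. The middle 50% of all fold changes lay between −0.68 and 0.50 on the log2 scale, with a median of −0.06. Lines of the same genotype were close to each other: among 13141 mRNAs with a mean of at least 100, the share that differed 4-fold was 0.0685%, 0.175% and 0.145% in the 3 pairs of Dcr KO lines and 0.624% between the Dcr WT libraries. Between the genotype means it was 6.32%.

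Strong and steady changes were defined by 5 conditions: an adjusted p under 0.05, at least a 4-fold change, a mean of at least 100 in the higher genotype, at least a 2-fold step between the nearest libraries of the genotypes, and an adjusted p under 0.05 again in each fit that left out 1 library. This set held 383 mRNAs that were higher in Dcr KO (2.35% of those tested) and 473 that were lower (2.9%). Since the conditions use the fold change, its p and the step between libraries, the values of these mRNAs describe the set and carry no further test. That the Dcr KO lines of a member all lie on the same side of both Dcr WT libraries follows from the rule. Of the higher mRNAs, 90 differed over 10-fold and 12 had a mean under 10 in Dcr WT, while 104 had a Dcr WT mean of at least 1000. Of the lower mRNAs, 108 differed over 10-fold, 31 had a mean under 10 in Dcr KO and 25 a Dcr KO mean of at least 1000. The 3 Dcr KO lines lay within 2-fold of each other for 357 of the 383 higher mRNAs and for 364 of the 473 lower ones. Line 1 was the lowest Dcr KO line for 176 of the higher mRNAs and the highest for 253 of the lower ones. At the edge of the set, Fgfbp3, which encodes a protein that binds fibroblast growth factors, lay just inside with a 4.01-fold lower mean level on the log scale (75.4, 54.2 and 59.7 in Dcr KO, against 268 and 241 in Dcr WT). Fgf23, a hormone-like fibroblast growth factor, lay just outside with a 3.99-fold higher one (428, 583 and 526 in Dcr KO, against 151 and 105.9 in Dcr WT).

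**Figure D1:**
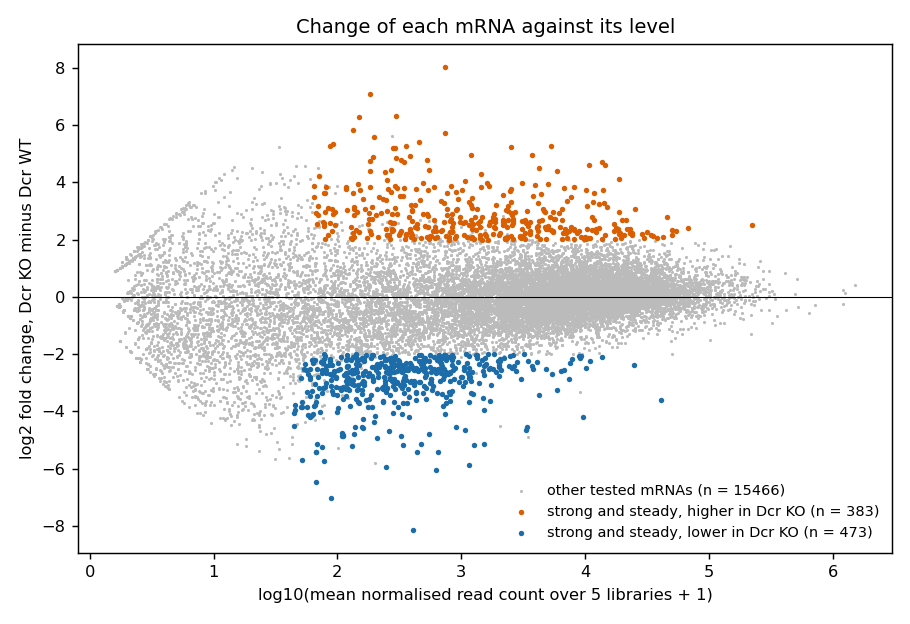
Change of each tested mRNA against its level: the x axis is the log10 of the mean normalised read count over the 5 libraries plus 1, the y axis the log2 fold change, Dcr KO minus Dcr WT. Each point is 1 mRNA; the 383 orange and 473 blue points are the strong and steady mRNAs, which reach 8.03 (Pou3f2) above and −8.13 (Col1a2) below 0.

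The mRNAs with the widest step upwards encode proteins of several unlike tissues. Vax2, a homeobox factor of the ventral eye, had 3682, 3889 and 4735 in Dcr KO, against 96.6 and 118 in Dcr WT. Atp6v1b1, the B1 subunit of the proton pump of acid-secreting cells and the next gene to Vax2 on its chromosome, had 287, 216 and 405 in Dcr KO, against 0 and 3.65 in Dcr WT. Meis2, a homeobox partner of Hox proteins, had 5339, 6877 and 6035 in Dcr KO, against 193 and 196 in Dcr WT. The 3 Dcr KO lines lay far above both wild-type libraries for each of these genes, with log2 fold changes of 5.24 ± 0.20, 7.09 ± 0.64 and 4.95 ± 0.17 (SE; limma adjusted p = 4.42e-06, 9.72e-05 and 4.42e-06). Smyd1, a muscle lysine methyltransferase, had 10723, 6416 and 8943 in Dcr KO, against 249 and 188 in Dcr WT. Trpc6, a cation channel opened by diacylglycerol, had 741, 768 and 716 in Dcr KO, against 20.1 and 13.7 in Dcr WT. Pou3f2, a neural POU factor, had 916, 1792 and 990.2 in Dcr KO, against 0 and 19.2 in Dcr WT, so that its step from 0 reads in Dcr WT library 1 to the knockout lines has no defined size. The next genes were mostly near absent in Dcr WT and clearly present in each knockout line. Tenm2, a teneurin that joins synaptic membranes, had 259, 545 and 672 in Dcr KO, against 6.04 and 3.65 in Dcr WT. Adh7, an alcohol dehydrogenase that also oxidises retinol, had 521, 739 and 494 in Dcr KO, against 8.05 and 22.8 in Dcr WT. Fmo1, a flavin-containing monooxygenase, had 168, 253 and 234 in Dcr KO, against 4.02 and 1.83 in Dcr WT. Genes for secreted proteins of mucous surfaces were among them. Cxcl17, a mucosal chemokine, had 225, 276 and 230.3 in Dcr KO, against 4.02 and 0.913 in Dcr WT, and Tff2, a trefoil peptide of gastric mucus, had 122, 153 and 178 in Dcr KO, against 2.01 and 3.65 in Dcr WT. Leaving out 1 wild-type library moved 4 of these fold changes by over 1.5 times: the log2 value became 5.87 (without library 1) or 10.20 (without library 2) for Pou3f2, 5.98 or 8.20 for Atp6v1b1, 6.99 or 5.60 for Cxcl17 and 4.60 or 5.99 for Adh7.

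Cd3g, Cd3d and Cd3e, which encode the gamma, delta and epsilon chains of the T-cell receptor complex, stand next to each other on chromosome 9 and were all in the strong and steady set. Cd3g had 532, 366 and 542 in Dcr KO, against 14.1 and 10.04 in Dcr WT. Cd3d had 144, 58.8 and 138 in Dcr KO, against 4.02 and 5.48 in Dcr WT. Cd3e had 2813, 2049 and 3687 in Dcr KO, against 493 and 403 in Dcr WT. Line 3 was the lowest of the 3 Dcr KO lines for each of these genes. The log2 fold changes were 5.20 ± 0.33, 4.22 ± 0.53 and 2.63 ± 0.25 (SE; limma adjusted p = 2.64e-05, 0.000517 and 0.000114). The sequences around the starts of Cd3g, Cd3d and Atp6v1b1 are shown as examples of CpG-poor promoters among the mRNAs that rose, with each CpG in capitals (RefSeq, GRCm38.p6, 250 bases before and 50 after the start, 5′ to 3′ along the gene). Cd3g (chr9:44980382-44980681, minus strand) held 4 CpGs, Cd3d (chr9:44981536-44981835, plus strand) 1 and Atp6v1b1 (chr6:83742767-83743066, plus strand) 3. The observed number of CpGs over the number that the base composition gives was 0.183, 0.0774 and 0.122, and at least 0.6 was taken as CpG-rich.
Cd3g: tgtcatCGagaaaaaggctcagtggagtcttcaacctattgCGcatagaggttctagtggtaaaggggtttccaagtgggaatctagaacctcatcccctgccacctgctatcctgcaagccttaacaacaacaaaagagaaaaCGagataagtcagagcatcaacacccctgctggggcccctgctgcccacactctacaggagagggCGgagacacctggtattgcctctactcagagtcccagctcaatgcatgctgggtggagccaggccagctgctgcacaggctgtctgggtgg
Cd3d: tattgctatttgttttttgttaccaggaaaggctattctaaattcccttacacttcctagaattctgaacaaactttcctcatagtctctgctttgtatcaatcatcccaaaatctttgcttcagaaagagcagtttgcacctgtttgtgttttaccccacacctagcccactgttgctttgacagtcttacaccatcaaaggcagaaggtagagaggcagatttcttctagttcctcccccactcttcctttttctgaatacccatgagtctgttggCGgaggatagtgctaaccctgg
Atp6v1b1: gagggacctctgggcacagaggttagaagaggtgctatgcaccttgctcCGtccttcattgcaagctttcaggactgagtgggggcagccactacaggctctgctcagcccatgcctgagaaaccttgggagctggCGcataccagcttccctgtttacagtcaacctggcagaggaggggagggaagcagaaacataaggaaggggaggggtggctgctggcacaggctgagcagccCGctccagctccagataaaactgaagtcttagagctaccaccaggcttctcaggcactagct

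Across the set, CpG-rich promoters were less common than among all mRNAs. Of strong and steady mRNAs with a promoter in the reference, 46% of 285 that were higher and 41.2% of 342 that were lower had a CpG-rich one, against 62.2% of all 12800 tested mRNAs with a promoter. The share was 64.7% of 2671 mRNAs among all those called higher and 61.7% of 2906 among all those called lower. CACGTG, the E-box letters searched on both strands, stood in 7.72% of the promoters of the higher mRNAs and 9.36% of those of the lower ones, against 9.43% of all. TATAAA, on either strand, stood in 14% of the higher and 6.43% of the lower ones, against 8.69% of all. These shares are a description of letters in the window and were not tested.

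The mRNAs with the widest step downwards included genes of matrix, secretion and differentiated cells. Col1a2, the alpha-2 chain of type I collagen, had 2.66, 1.53 and 0.765 in Dcr KO, against 292 and 1723 in Dcr WT. Matn3, a matrix protein of cartilage, had 16.0, 31.3 and 19.9 in Dcr KO, against 1171 and 1911 in Dcr WT. Plvap, the diaphragm protein of endothelial vesicles, had 81.6, 81.7 and 115 in Dcr KO, against 1994 and 2299 in Dcr WT. Each Dcr KO line lay below both wild-type libraries, with log2 fold changes of −8.13 ± 0.75, −6.05 ± 0.38 and −4.53 ± 0.25 (SE; limma adjusted p = 0.000108, 2.4e-05 and 1.61e-05). The Dcr WT libraries themselves differed for Col1a2, and its log2 fold change was −9.41 when library 1 was left out and −6.85 when library 2 was. Plac8, a small cysteine-rich protein, had 47.9, 35.1 and 54.3 in Dcr KO, against 1994 and 3635 in Dcr WT. Spink1, a trypsin inhibitor, had 0, 0.764 and 1.53 in Dcr KO, against 264 and 177 in Dcr WT. Bpifb4 had 5.32, 0 and 0 in Dcr KO, against 155 and 171 in Dcr WT, so that these last 2 genes were at a handful of reads at most in the knockout lines. Among genes for cell-surface and intracellular proteins of immune cells, Treml2 had 23.96, 25.2 and 19.9 in Dcr KO, against 766 and 1347 in Dcr WT. Slfn3, of the Schlafen family, had 30.2, 20.6 and 27.6 in Dcr KO, against 678 and 877 in Dcr WT. Trim29, a tripartite motif protein of epithelia, had 7.99, 3.82 and 16.1 in Dcr KO, against 368 and 835 in Dcr WT. Genes of development also lay here, with low values in every Dcr KO line. Pitx3, a factor of lens and dopaminergic neurons, had 3.55, 1.53 and 0 in Dcr KO, against 76.5 and 173 in Dcr WT. Vrtn, known in pigs for its link to the number of vertebrae, had 156, 112 and 31.4 in Dcr KO, against 2684 and 3363 in Dcr WT. Gap43, a protein of neuronal growth cones, had 85.2, 27.5 and 18.4 in Dcr KO, against 1444 and 1688 in Dcr WT. For Vrtn and Gap43 the lines were not alike: without line 4 the log2 fold change of Vrtn was −4.49 in place of −5.17, and without line 1 that of Gap43 was −6.06 in place of −5.43. Without line 1 the value for Bpifb4 was −7.35 in place of −6.47. Without Dcr WT library 1 or 2, it was −6.53 or −5.35 for Trim29, and −6.26 or −5.10 for Pitx3, which had −5.10 without line 4. The promoter of Col1a2 (chr6:4505368-4505667, plus strand), the mRNA with the widest step, is shown beside those of the mRNAs that rose; it held 13 CpGs, with an observed-over-composition ratio of 0.47.
Col1a2: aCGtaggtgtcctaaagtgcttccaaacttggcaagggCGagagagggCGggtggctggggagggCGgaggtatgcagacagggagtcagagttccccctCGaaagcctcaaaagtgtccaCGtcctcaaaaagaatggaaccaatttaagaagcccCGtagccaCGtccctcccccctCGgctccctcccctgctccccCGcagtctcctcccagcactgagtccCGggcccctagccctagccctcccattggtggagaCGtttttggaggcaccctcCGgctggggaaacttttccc

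**Figure D2:**
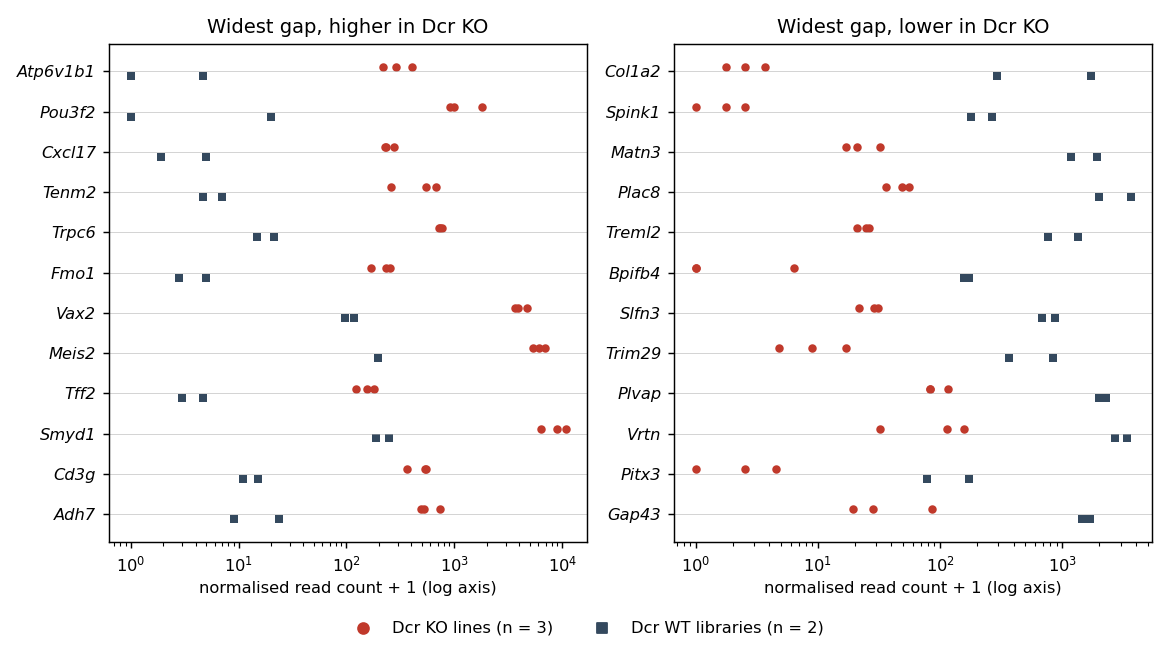
Normalised read counts plus 1 (log axis) of the 12 mRNAs with the widest step between genotypes in each direction, with 1 red point per Dcr KO line (n = 3) and 1 dark square per Dcr WT library (n = 2). On the left every red point lies right of both squares, and on the right every red point lies left of both, as for Vax2 (3682 or more in Dcr KO, 118 or less in Dcr WT).

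Hox genes, which set position along the body axis and are silent or low in ESCs, were higher in Dcr KO more often than any other group of 20 or more genes examined. Of 37 tested, 20 rose (54.1%) and 2 fell (5.41%), against 20.9% and 22.9% of all mRNAs, and the median log2 fold change was 1.84 against −0.06. Of the 20, 12 were called in every fit that left out 1 library. The strong and steady set held 11 Hox genes, from the A, C and D clusters. Hoxa13 had 293.7, 351 and 319.9 in Dcr KO, against 2.01 and 13.7 in Dcr WT. Hoxa9 had 266, 367 and 744 in Dcr KO, against 22.1 and 4.56 in Dcr WT. Hoxd9 had 663, 769 and 905 in Dcr KO, against 84.5 and 27.4 in Dcr WT. Knockout lines stood at 266 or more for these genes, while the wild-type libraries differed from each other, with library 1 lower for Hoxa13 and higher for Hoxa9 and Hoxd9. The log2 fold changes without Dcr WT library 1 or 2 were 4.45 or 6.74 for Hoxa13, 6.23 or 4.18 for Hoxa9 and 4.77 or 3.18 for Hoxd9. Hoxa2, which patterns the hindbrain, had 159.7, 108 and 155 in Dcr KO, against 12.1 and 0 in Dcr WT. The 2 Hox genes that fell were Hoxc13 and Hoxb1, and neither passed every fit that left out 1 library. Hoxc13 had 229.8, 137 and 98.0 in Dcr KO, against 465 and 417 in Dcr WT (adjusted p = 0.0958 in limma without Dcr WT library 1). Hoxb1 had 1.77, 0 and 0 in Dcr KO, against 72.4 and 5.48 in Dcr WT (adjusted p = 0.155 in limma without Dcr WT library 1). In genome order, Hoxa5, Hoxa6, Hoxa7 and Hoxa9 formed 1 run of tested neighbours in the strong and steady set, Hoxd11, Hoxd9 and Hoxd8 another, and Hoxa13 stood beside Evx1. Values of these closely packed and partly overlapping genes are uncertain, because the sources used here do not say if reads were counted by strand.

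Other homeobox factors were split. Of 121 tested, 37 rose (30.6%) and 28 fell (23.1%), with 12 and 8 in the strong and steady set. Evx1, a factor of the posterior embryo, had 632, 642 and 409 in Dcr KO, against 20.1 and 20.1 in Dcr WT and was 26.1-fold higher. On the other side, Lhx3, a factor of pituitary and motor neurons, had 3.55, 7.64 and 4.59 in Dcr KO, against 88.5 and 112 in Dcr WT. Pou2f3, a factor of keratinocytes and tuft cells, had 188, 83.3 and 54.3 in Dcr KO, against 1076 and 1191 in Dcr WT. Both genes fell, with each Dcr KO line below both wild-type libraries and log2 fold changes of −4.06 ± 0.56 and −3.56 ± 0.44 (SE; limma adjusted p = 0.000836 and 0.000475).

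T-box genes supplied 4 of the 5 strong and steady mRNAs that rose among Gata, T-box and Kruppel-like factors. Tbx18, a factor of heart and urogenital mesenchyme, had 784, 982 and 1116 in Dcr KO, against 66.4 and 63.9 in Dcr WT. Tbx4, which acts in hindlimb and lung, had 3229, 4927 and 3686 in Dcr KO, against 537 and 628 in Dcr WT. Tbx20, a cardiac factor, had 3263, 3907 and 2656 in Dcr KO, against 408 and 690.1 in Dcr WT. The 4th was Tbx15, a factor of limb and skin mesenchyme, with 735, 949 and 992 in Dcr KO, against 209 and 209 in Dcr WT. Fold changes of the 4 genes were 14.4-fold, 6.68-fold, 6.08-fold and 4.21-fold. Klf17 and Tbx21 ran the other way. Klf17, a Kruppel-like factor of the germline and early human embryo, had 81.6, 72.6 and 61.98 in Dcr KO, against 684 and 827 in Dcr WT. Tbx21, the T-bet factor of type 1 helper T cells, had 41.7, 51.9 and 16.8 in Dcr KO, against 301.8 and 268 in Dcr WT. In the whole group of 47, 11 rose (23.4%) and 7 fell (14.9%), near the shares of all mRNAs, and its median, −0.04, changed sign with the scaling.

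Basic helix-loop-helix factors fell more often than they rose, 19 (35.2%) against 10 (18.5%) of 54, with a median log2 fold change of −0.61. The strong and steady members were nevertheless mostly higher, 4 against 2. Neurog1, a neurogenic factor, had 5239, 7795 and 3167 in Dcr KO, against 851 and 778 in Dcr WT. Olig3, of dorsal spinal cord progenitors, had 269, 465 and 349.7 in Dcr KO, against 74.4 and 62.1 in Dcr WT. Bhlhe22, of maturing neurons, had 146, 149.7 and 97.2 in Dcr KO, against 22.1 and 29.2 in Dcr WT. Id2, which blocks other helix-loop-helix factors from binding DNA, had 26917, 29271 and 18745 in Dcr KO, against 5788 and 6214 in Dcr WT. Line 4 was the lowest knockout line for Neurog1, Bhlhe22 and Id2. Hes2, a hairy-related repressor, had 13.3, 1.53 and 15.3 in Dcr KO, against 264 and 361 in Dcr WT; without line 3 its log2 fold change was −4.34 in place of −5.20. Mesp2, a factor of somite formation, had 158, 162 and 221 in Dcr KO, against 927 and 657 in Dcr WT. Of 8 neural markers, 4 rose and 1 fell, and their summed count was 64772 to 74894 in Dcr KO, against 31992 and 54037 in Dcr WT. Without Ncam1, the highest of them, the sums overlapped, at 37073 to 50437 in Dcr KO, against 28767 and 46280 in Dcr WT. Their part in these results was not tested.

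**Figure D3:**
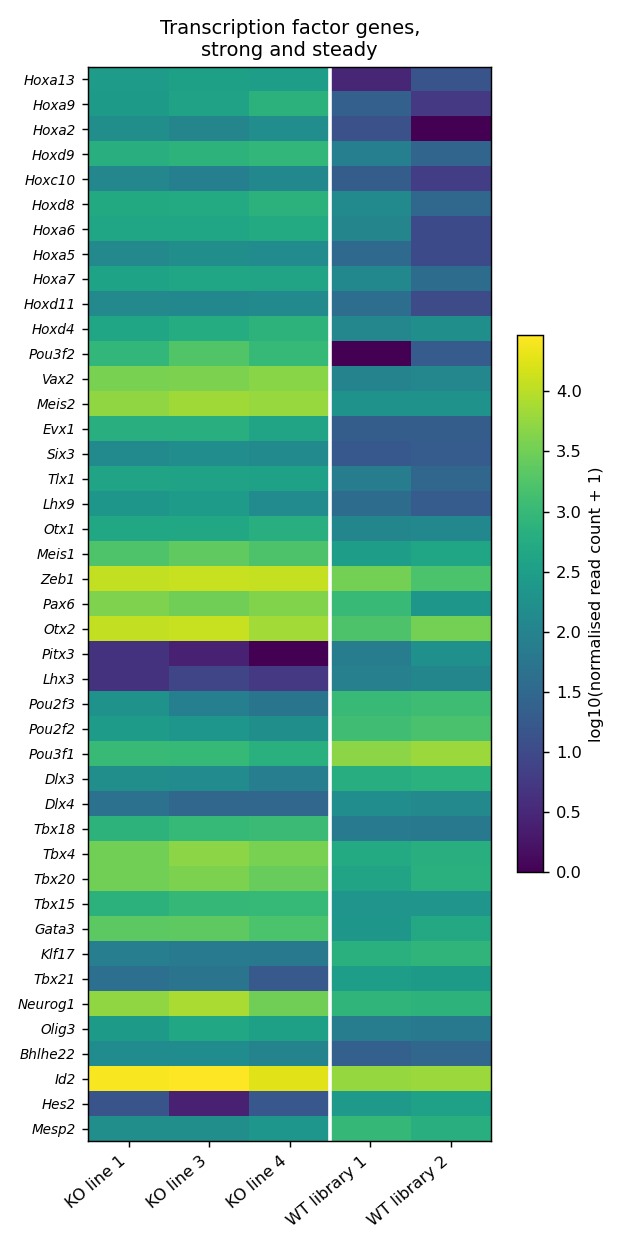
Normalised read counts plus 1 on a log10 colour scale for strong and steady mRNAs of Hox, homeobox, Gata, T-box, Kruppel-like and helix-loop-helix factors (rows) in the 3 Dcr KO lines, left of the white line, and the 2 Dcr WT libraries, right of it. Rows from Hoxa13 to Hoxd4 are brighter in every Dcr KO line, and Pitx3 to Dlx4 darker.

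Genes for chromatin enzymes and readers were higher in many small steps. Of 105, 43 rose (41%) and 10 fell (9.52%), and the median log2 fold change was 0.39. In fits that each left out 1 library, 20 of the 43 and 5 of the 10 were called every time. Smarca2, an ATPase of the SWI/SNF remodelling complex, had 3505, 3628 and 4705 in Dcr KO, against 563 and 519 in Dcr WT. Cbx8, a polycomb reader, had 711, 489 and 530.3 in Dcr KO, against 159 and 99.5 in Dcr WT. Prdm16, a lysine methyltransferase family member of brown fat and stem cells, had 6326, 6399 and 9535 in Dcr KO, against 1699.9 and 1137 in Dcr WT. All 3 had a log2 fold change between 2.17 and 2.85. Of those that fell, Hdac11, a histone deacetylase, had 824, 910.5 and 1032 in Dcr KO, against 2961 and 3253 in Dcr WT. Chd5, a remodeller of neurons and testis, had 2381, 1968 and 1974 in Dcr KO, against 5409.6 and 5639.8 in Dcr WT. Of 339 tested zinc finger genes named Zfp, 84 were higher (24.8%, near the 20.9% of all mRNAs) and 41 lower (12.1%, against 22.9%). Zfp827 had 13747, 14893 and 13141 in Dcr KO, against 3983 and 2792 in Dcr WT. Zfp367 had 12236, 14018 and 13993 in Dcr KO, against 2692 and 3712 in Dcr WT. Zfp711 had 457, 693 and 526 in Dcr KO, against 58.3 and 185 in Dcr WT, with a log2 fold change of 2.39 that became 1.56 on leaving out Dcr WT library 1 and 3.22 on leaving out library 2. The strong and steady Zfp mRNAs that were lower were Zfp575 and Zfp677. Zfp575 had 47.9, 108 and 89.5 in Dcr KO, against 604 and 377 in Dcr WT. Zfp677 had 39.9, 67.2 and 61.98 in Dcr KO, against 221 and 330.5 in Dcr WT.

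Genes of developmental signalling pathways were called in both directions. Of 46 Wnt ligands, receptors and inhibitors, 16 fell (34.8%) and 10 rose (21.7%), and all 5 strong and steady members were lower. Wnt8a, a Wnt ligand of the early embryo, had 62.1, 15.3 and 11.5 in Dcr KO, against 604 and 613 in Dcr WT. Wnt3, needed for the primitive streak, had 130.4, 61.9 and 49.0 in Dcr KO, against 503 and 592 in Dcr WT. Line 1 kept the highest value of the knockout lines for both ligands, and without it the log2 fold change of Wnt8a was −5.42 in place of −4.70. The R-spondins, secreted proteins that raise the response to Wnt, were split. Rspo1 had 169, 154 and 134 in Dcr KO, against 1189 and 1210.5 in Dcr WT. Rspo4 had 22.2, 25.2 and 12.2 in Dcr KO, against 213 and 215 in Dcr WT. Rspo2, added after its values were seen, rose and had 55.0, 81.7 and 55.1 in Dcr KO, against 20.1 and 13.7 in Dcr WT. Among Fgf genes, 8 of 27 fell (29.6%) and 7 rose (25.9%). Fgf8, a ligand of gastrulation and limb growth, had 5.32, 8.40 and 9.18 in Dcr KO, against 354 and 168 in Dcr WT and was 28.9-fold lower. Fgfr4, a receptor for such ligands, had 156, 188 and 212 in Dcr KO, against 1139 and 1146 in Dcr WT. In a group of MAP kinase feedback genes, which includes Dusp, Spry and Spred family members, 13 of 29 fell (44.8%) and 5 rose (17.2%). The group was not limited to genes shown to dampen this pathway. The strong and steady ones were the phosphatase genes Dusp15 and Dusp26. Dusp15 had 5.32, 9.93 and 6.89 in Dcr KO, against 129 and 105 in Dcr WT. Dusp26 had 23.1, 19 and 42.1 in Dcr KO, against 243 and 271 in Dcr WT.

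In the TGF-beta superfamily, 16 of 50 genes fell (32%) and 10 rose (20%). Both ligands of the bone morphogenetic protein branch in the strong and steady set were lower. Bmp4 had 224, 239.8 and 145 in Dcr KO, against 1211 and 1717 in Dcr WT. Bmp6 had 92.3, 105 and 45.1 in Dcr KO, against 642 and 592 in Dcr WT. Acvrl1, a type I receptor of endothelium, had 46.1, 65.7 and 60.5 in Dcr KO, against 424 and 356 in Dcr WT. Nog, the secreted inhibitor that binds these ligands, fell with them and had 19.5, 39.0 and 21.4 in Dcr KO, against 127 and 273 in Dcr WT. Gdf11, a ligand of the activin branch, ran the other way and had 2888, 3162 and 2701 in Dcr KO, against 587 and 702 in Dcr WT. Tgfbr2, the type II receptor for TGF-beta, had 1728, 2133 and 1565 in Dcr KO, against 266 and 439 in Dcr WT. Of 24 Notch pathway genes, 10 fell (41.7%) and 5 rose (20.8%). Notch3, a Notch receptor, had 9861, 9932 and 8064 in Dcr KO, against 46568 and 50505 in Dcr WT, with a log2 fold change of −2.39 ± 0.15 (limma; SE, adjusted p = 2.4e-05).

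Receptors and ligands of tyrosine kinase signalling were called in both directions in equal number, 15 higher and 15 lower of 59. That is 25.4% each, near the 20.9% and 22.9% of all mRNAs. Kdr, the main receptor for VEGF-A, had 4771, 9291 and 6632 in Dcr KO, against 364 and 235 in Dcr WT and was 22.7-fold higher. Flt1, another receptor for VEGF, had 191, 121 and 74.99 in Dcr KO, against 871 and 1035 in Dcr WT and was 7.84-fold lower. Pecam1 and Kdr led a list of 8 endothelial and blood markers, of which 3 rose and 1 fell. The summed count of that list was 48496 to 56861 in Dcr KO, against 16142 and 18546 in Dcr WT, and Hbb-bt stayed under 10 in every library. Without Pecam1, the highest of them, the sums were 6463 to 10696 in Dcr KO, against 1538 and 1796 in Dcr WT. These sums still include Kdr, which made up most of them in every Dcr KO line and a small part in Dcr WT. A rise across the remaining markers is therefore not shown by the sums. The part of such cells in the result was not tested. Erbb3, a receptor that pairs with Erbb2 to bind neuregulins, had 61388, 62849 and 58526 in Dcr KO, against 11954 and 16898 in Dcr WT. Ligands were called in both directions, Pdgfc and Ereg among those higher, and the ligands in the strong and steady set were lower. Pdgfb, a platelet-derived growth factor chain, had 440.1, 399 and 264 in Dcr KO, against 2177 and 2393 in Dcr WT. Nrg4, a neuregulin, had 134, 155 and 127 in Dcr KO, against 762 and 607 in Dcr WT. Gfra1, the co-receptor for GDNF, had 105.6, 45.1 and 36.7 in Dcr KO, against 775 and 721 in Dcr WT.

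Cytokine and chemokine genes were called about as often as all mRNAs, with 22 of 114 higher (19.3%) and 27 lower (23.7%). Of the 27, however, 4 were called in every fit that left out 1 library, against 15 of the 22. Il7, a growth factor of lymphocytes, had 407, 639 and 475 in Dcr KO, against 36.2 and 49.3 in Dcr WT. Osm, a cytokine of the LIF family, had 1303, 727 and 1338 in Dcr KO, against 84.5 and 146 in Dcr WT. Il2rg, the common gamma chain of interleukin receptors, had 3355, 3908 and 4612 in Dcr KO, against 734 and 586 in Dcr WT. Il4ra, the receptor chain for interleukin 4, went the other way with 129, 154 and 152 in Dcr KO, against 857 and 652 in Dcr WT. Il1r2, a decoy receptor for interleukin 1, had 5.32, 23.7 and 6.89 in Dcr KO, against 139 and 151 in Dcr WT, and without line 3 its log2 fold change was −4.37 in place of −3.76. Among seven-pass receptors, 19 of 101 rose (18.8%) and 25 fell (24.8%), near the 20.9% and 22.9% of all mRNAs. The receptors for sphingosine 1-phosphate were split: S1pr1 had 1891, 1754 and 1770.0 in Dcr KO, against 326 and 239 in Dcr WT, whereas S1pr3 had 80.7, 96.2 and 58.2 in Dcr KO, against 746 and 1171 in Dcr WT. Adgrf5, an adhesion receptor of lung epithelium, had 3434, 4149 and 4222 in Dcr KO, against 258 and 346 in Dcr WT. Gpr3, a receptor that keeps oocytes arrested, had 51.5, 39.0 and 52.8 in Dcr KO, against 266 and 293 in Dcr WT. Axon guidance genes were split evenly, 15 higher and 15 lower of 50 (30% each). Sema5a, a transmembrane semaphorin, had 17047, 24682 and 24753 in Dcr KO, against 1169 and 2277 in Dcr WT. Flrt2, a leucine-rich adhesion protein, had 1802, 1814 and 1566 in Dcr KO, against 416 and 403 in Dcr WT. Unc5a, a receptor for netrin, had 128, 119 and 139 in Dcr KO, against 1583 and 947 in Dcr WT. Robo3, which lets commissural axons cross the midline, had 14.2, 10.7 and 13.8 in Dcr KO, against 115 and 154 in Dcr WT.

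Collagen genes fell more often than they rose, with 14 lower (34.1%) and 6 higher (14.6%) of 41, and 7 of 8 strong and steady collagen mRNAs were lower. Col1a1, the partner chain of Col1a2, had 131, 73.3 and 77.3 in Dcr KO, against 1867 and 5516 in Dcr WT. Its log2 fold change of −5.13 became −5.91 on leaving out Dcr WT library 1 and −4.35 on leaving out library 2. Col6a1 and Col6a2, neighbouring genes for 2 chains of the beaded-filament collagen VI, fell together. Col6a1 had 24.8, 14.5 and 19 in Dcr KO, against 167 and 225 in Dcr WT. Col6a2 had 71.9, 64.9 and 91.1 in Dcr KO, against 563 and 587 in Dcr WT. Col5a2, a chain of collagen V, was the one strong and steady collagen mRNA that rose, with 913, 671 and 852 in Dcr KO, against 125 and 265 in Dcr WT. Of 44 proteoglycans and matrix glycoproteins, 17 fell (38.6%) and 10 rose (22.7%). Eln, elastin, had 44.4, 35.9 and 33.7 in Dcr KO, against 348 and 697 in Dcr WT. Bgn, the small proteoglycan biglycan, had 129.5, 75.6 and 71.9 in Dcr KO, against 865 and 997 in Dcr WT. Fbln5, a fibulin that helps elastic fibres to assemble, was higher, with 980.4, 935 and 686 in Dcr KO, against 209 and 145 in Dcr WT. Sparcl1, a SPARC relative, had 136, 83.3 and 165 in Dcr KO, against 8.05 and 7.30 in Dcr WT. Enzymes that modify collagen rose in 9 of 19 cases (47.4%) and fell in 4 (21.1%). Loxl4, a lysyl oxidase that cross-links collagen, had 13042, 14815 and 24858 in Dcr KO, against 634 and 751 in Dcr WT, with a log2 fold change of 4.61 ± 0.25 (limma; SE, adjusted p = 1.61e-05). P4ha3, a subunit of collagen prolyl hydroxylase, had 203, 243 and 139 in Dcr KO, against 36.2 and 43.8 in Dcr WT. Laminin and nidogen genes, which belong to the basement membrane, leaned upwards with 5 of 13 higher (38.5%) and 2 lower (15.4%). Nid1 had 123411, 131299.5 and 113089 in Dcr KO, against 43649 and 34454 in Dcr WT. The list of 12 markers of fibroblasts or feeder cells holds Col1a1, Col1a2 and Col3a1, so it is not separate from the collagens. Of the 12 markers, 2 rose and 4 fell, and these collagens were among those that fell. Without Vim their summed count was 1845 to 2373 in Dcr KO, against 6991 and 11521 in Dcr WT, while Lum and Fap stayed under 10 in every library. Vim itself had 136633, 128883 and 117145 in Dcr KO, against 44721 and 26855 in Dcr WT. The part of such cells in the collagen result was not tested.

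Adhesion genes were mostly split. Itgav and Itgb3, the chains of the vitronectin receptor, rose together. Itgav had 46287, 48296 and 45079 in Dcr KO, against 8914 and 10588 in Dcr WT. Itgb3 had 6532, 8757 and 8127 in Dcr KO, against 1261 and 1857 in Dcr WT. Itga2b, the platelet partner of Itgb3, fell and had 136, 110.0 and 111 in Dcr KO, against 541 and 670.1 in Dcr WT. Itgb2, a chain of leukocyte integrins, had 31.1, 19.9 and 13.0 in Dcr KO, against 147 and 225 in Dcr WT. Among cadherins, 7 of 22 rose (31.8%) and 3 fell (13.6%). Cdh2, N-cadherin, had 7959, 8966 and 7207 in Dcr KO, against 1750.2 and 1551 in Dcr WT. Cdh13, a cadherin anchored by a lipid, had 1420.5, 1283 and 829.5 in Dcr KO, against 143 and 126 in Dcr WT. Cdh22 was lower, with 17.7, 28.3 and 26.0 in Dcr KO, against 205 and 99.5 in Dcr WT. Junction genes of epithelia were also called in both directions. Dsp, desmoplakin of the desmosome, had 50812, 50972 and 52970.3 in Dcr KO, against 10246 and 13285 in Dcr WT. The connexin gene Gjb2 was lower and had 6.21, 6.11 and 8.42 in Dcr KO, against 121 and 158 in Dcr WT. Among keratins, 5 of 36 rose (13.9%) and 4 fell (11.1%), both below the 20.9% and 22.9% of all mRNAs. The 5 that rose were called in every fit that left out 1 library, and of the 4 that fell 0 were. Krt17, a keratin of stressed and embryonic epithelium, had 26259.6, 21851 and 22160.0 in Dcr KO, against 2619 and 2729.5 in Dcr WT. Krt42 had 14364, 11804 and 11453 in Dcr KO, against 2955 and 2323 in Dcr WT. Krt16 had 194, 222 and 171 in Dcr KO, against 38.2 and 53.9 in Dcr WT. These 3 genes stand next to each other and have similar sequences, so that reads may be split between them. Krt13, of mucosal epithelium, had 481, 535 and 273 in Dcr KO, against 32.2 and 31.0 in Dcr WT.

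Genes for contractile proteins were lower as a group. Of 37, 19 fell (51.4%) and 3 rose (8.11%), with a median log2 fold change of −0.74; 8 of the 19 were called in every fit that left out 1 library. Cnn1, calponin of smooth muscle, had 245, 246 and 135 in Dcr KO, against 2324 and 2824 in Dcr WT. Myl3, a myosin light chain of slow and cardiac muscle, had 4.44, 8.40 and 7.65 in Dcr KO, against 151 and 115 in Dcr WT. Flnc, muscle filamin, had 5418, 4026 and 2520.0 in Dcr KO, against 14022 and 19708 in Dcr WT. Tnnc2, troponin C of fast muscle, had 42.6, 26.0 and 38.3 in Dcr KO, against 131 and 194 in Dcr WT.

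Potassium channel genes fell in 35 of 83 cases (42.2%) and rose in 5 (6.02%), with a median log2 fold change of −0.77. Of the 35, 17 were called in every fit that left out 1 library, near the 48.9% of all mRNAs called lower. All 6 strong and steady members were lower. Kcnip2, an accessory subunit of A-type channels, had 254, 243 and 269 in Dcr KO, against 1819 and 2165 in Dcr WT. Kcnj11, the pore of the ATP-sensitive channel, had 26.6, 36.7 and 39.0 in Dcr KO, against 215 and 312 in Dcr WT. Kcnj4, an inward rectifier, had 303, 229.9 and 205 in Dcr KO, against 1356 and 1363 in Dcr WT. Kcna6, a voltage-gated channel, had 16.9, 29.8 and 33.7 in Dcr KO, against 125 and 197 in Dcr WT. Calcium and sodium channels changed both ways, with 21 of 67 lower (31.3%) and 15 higher (22.4%). The T-type calcium channel genes fell together. Cacna1g had 241, 218 and 192 in Dcr KO, against 1442 and 1954 in Dcr WT. Cacna1h had 188, 133 and 253 in Dcr KO, against 1736 and 1881 in Dcr WT. Cacna1i had 20.4, 34.4 and 22.2 in Dcr KO, against 159 and 164 in Dcr WT. The 3 genes encode the whole T-type family, and their log2 fold changes were −2.95 ± 0.22, −3.28 ± 0.28 and −2.65 ± 0.40 (SE; limma adjusted p = 4.4e-05, 6.85e-05 and 0.00132). Cacng6, an auxiliary subunit, had 309, 212 and 253 in Dcr KO, against 2555 and 2653 in Dcr WT. Scnn1a, a subunit of the epithelial sodium channel, rose and had 2608, 2883 and 2388 in Dcr KO, against 495 and 642 in Dcr WT.

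Receptors for neurotransmitters rose in 20 and fell in 26 of 99 cases (20.2% and 26.3%), near the 20.9% and 22.9% of all mRNAs. Grin3a, a subunit of NMDA receptors, had 278, 568 and 608 in Dcr KO, against 14.1 and 15.5 in Dcr WT. Htr5b, a serotonin receptor, had 929.8, 1541 and 1364 in Dcr KO, against 169 and 262 in Dcr WT. Adrb1, the beta-1 adrenergic receptor, had 541, 843 and 848 in Dcr KO, against 64.4 and 145 in Dcr WT. By contrast, alpha-2 adrenergic receptor genes fell. Adra2b had 22.2, 26.0 and 20.7 in Dcr KO, against 129 and 240.1 in Dcr WT. Adra2c had 27.5, 13.8 and 11.5 in Dcr KO, against 121 and 120.5 in Dcr WT. Chrnb4, a nicotinic receptor subunit, had 82.5, 91.7 and 102 in Dcr KO, against 819 and 1039.8 in Dcr WT. Grm6, a glutamate receptor of retinal bipolar cells, had 1.77, 11.5 and 1.53 in Dcr KO, against 115 and 240.1 in Dcr WT. Without line 3 the log2 fold change of Grm6 was −5.98 in place of −5.23. That of Adrb1 was 3.48 without Dcr WT library 2, in place of 2.90. Grin1, the obligate NMDA receptor subunit, stood on 2 rows of the table, and the row with the higher count had 3262, 6071 and 6361 in Dcr KO, against 781 and 501 in Dcr WT. Genes of synaptic vesicle release were also split, 17 higher (24.6%) and 18 lower (26.1%) of 69, near the 20.9% and 22.9% of all mRNAs. Syn2, synapsin II, had 397, 430.0 and 395 in Dcr KO, against 28.2 and 29.2 in Dcr WT. Syp, synaptophysin, had 159, 192 and 137 in Dcr KO, against 1092 and 1276 in Dcr WT.

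Transporters of small molecules fell more often than they rose. For amino acid transporters the counts were 19 lower (42.2%) and 5 higher (11.1%) of 45, and 14 of the 19 were called in every fit that left out 1 library. Slc38a3, which carries glutamine, had 169, 145 and 84.2 in Dcr KO, against 1855 and 1511 in Dcr WT. Slc1a3, a glutamate and aspartate transporter, had 1033, 845 and 457 in Dcr KO, against 3883 and 3796 in Dcr WT. Slc7a2, a carrier of cationic amino acids, ran the other way with 1838, 2474 and 2459 in Dcr KO, against 716 and 594 in Dcr WT. Of 275 other solute carriers, 80 fell (29.1%) and 46 rose (16.7%), with 15 and 4 in the strong and steady set. Slc39a8, which brings zinc and manganese into cells, had 23.96, 39.0 and 25.2 in Dcr KO, against 394 and 456.4 in Dcr WT. Slc2a5, the fructose transporter, had 75.4, 32.8 and 91.8 in Dcr KO, against 760.4 and 858 in Dcr WT. Slc18a3, which loads acetylcholine into vesicles, had 12.4, 4.58 and 10.7 in Dcr KO, against 219 and 297 in Dcr WT. These 3 mRNAs fell by at least 13.0-fold on the scale of counts plus 1. Slco2a1, a prostaglandin transporter, rose and had 2709.6, 2992 and 2519 in Dcr KO, against 404 and 376 in Dcr WT.

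Metabolic genes fell in several groups. In cholesterol synthesis and uptake, 12 of 24 fell (50%) and 2 rose (8.33%), with no member in the strong and steady set. Dhcr7, the last enzyme of the pathway, had 12242, 8777 and 10584 in Dcr KO, against 27885 and 29644 in Dcr WT. Lss, lanosterol synthase, had 9518, 6406 and 6842 in Dcr KO, against 19687 and 19424 in Dcr WT. Ebp, a sterol isomerase of the same pathway, rose and had 14811, 11637 and 12939 in Dcr KO, against 6645 and 4927 in Dcr WT. In fatty acid metabolism, 16 of 53 fell (30.2%) and 5 rose (9.43%). The thioesterase genes Acot1 and Acot3, which release fatty acids from coenzyme A, stand beside each other and fell. Acot1 had 1259.9, 1505 and 1271 in Dcr KO, against 12072 and 13353 in Dcr WT. Acot3 had 13.3, 44.3 and 18.4 in Dcr KO, against 669.9 and 251 in Dcr WT. Near-identical copies in this family may share reads, and the Dcr WT libraries differed for Acot3, whose log2 fold change was −3.44 without library 1 and −4.85 without library 2. Mogat2, an enzyme of triglyceride synthesis, had 60.3, 58.0 and 44.4 in Dcr KO, against 374 and 426 in Dcr WT. Elovl4, which makes very long fatty acids, had 371, 344 and 239.5 in Dcr KO, against 1744 and 1514 in Dcr WT. Carbonic anhydrases fell in 6 of 15 cases (40%) and rose in 1 (6.67%). Car4, the membrane-bound form, had 452, 306 and 214 in Dcr KO, against 8286 and 7333 in Dcr WT, with a log2 fold change of −4.65 ± 0.28 (limma; SE, adjusted p = 2.32e-05).

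Detoxification enzymes were called in both directions, 16 higher (18.2%) and 18 lower (20.5%) of 88. These shares were near the 20.9% and 22.9% of all mRNAs. Gsto1, an omega-class glutathione transferase, had 69744, 80414 and 86224 in Dcr KO, against 19097 and 13406 in Dcr WT. Cyp2w1, a cytochrome P450, had 309, 447 and 404 in Dcr KO, against 22.1 and 13.7 in Dcr WT. Cyp27a1, the sterol 27-hydroxylase, was lower and had 74.5, 128 and 127 in Dcr KO, against 684 and 602 in Dcr WT. Mgst1, a microsomal glutathione transferase, had 90.5, 109 and 99.5 in Dcr KO, against 581 and 623 in Dcr WT. Aldh1b1, a mitochondrial aldehyde dehydrogenase, had 10729, 10339 and 11395 in Dcr KO, against 1863 and 2609 in Dcr WT. Aldh3a1, which oxidises aldehydes in cornea, had 1197, 795 and 758 in Dcr KO, against 183 and 181 in Dcr WT. Mt2, a metallothionein that binds zinc, lies outside these groups and was added after its values were seen. Mt2 had 428247, 287755 and 276530.1 in Dcr KO, against 77488 and 41824 in Dcr WT.

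Nuclear genes for the respiratory chain were lower wherever they were called. Of 95, 49 fell (51.6%) and 0 rose in limma, and edgeR and DESeq2 on the recovered reads also called 0 higher. At an unadjusted p under 0.05, limma gave 59 lower and 1 higher. The group had a median log2 fold change of −0.58, and 30 of the 49 were called in every fit that left out 1 library. Atp5e, the epsilon subunit of ATP synthase, had 3501, 2844 and 3499 in Dcr KO, against 12095 and 17519 in Dcr WT. Cox7a2l, a factor that joins respiratory complexes, had 7441, 6114 and 4255 in Dcr KO, against 31043 and 20028 in Dcr WT. Ndufa4l2, a paralog of a complex IV subunit known to respond to hypoxia, had 16.0, 28.3 and 14.5 in Dcr KO, against 1185 and 435 in Dcr WT; its log2 fold change of −5.18 became −4.46 on leaving out Dcr WT library 1 and −5.91 on leaving out library 2.

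Cytosolic ribosomal protein genes fell in 48 of 84 cases (57.1%) and rose in 5 (5.95%), with a median log2 fold change of −0.80. Of the 48, 21 were called in every fit that left out 1 library, and of the 5 that rose 0 were. Rps29 had 273, 302.5 and 279 in Dcr KO, against 869 and 1588 in Dcr WT. Rpl39l, a paralog of Rpl39 that is best known from testis, had 1914, 1196 and 1001 in Dcr KO, against 9047 and 5493 in Dcr WT. Rps23 was the largest call upwards, at 15283, 8491 and 6950.0 in Dcr KO, against 1203 and 4959 in Dcr WT, and was not called without line 1 (limma adjusted p = 0.107) or Dcr WT library 1 (0.186). These genes have many processed pseudogenes, so their counts may be shared with such copies. Mitochondrial ribosomal protein genes fell in 41 of 77 cases (53.2%) and rose in 2 (2.6%). Mrps17 had 4588, 4416 and 4544 in Dcr KO, against 16072 and 12637 in Dcr WT. Mrps14 had 3458, 2817 and 3171 in Dcr KO, against 9733 and 9344 in Dcr WT. Mrps15, which rose, had 23588, 25741 and 21191 in Dcr KO, against 12366 and 13549.8 in Dcr WT. Genes of ribosome assembly fell in 22 of 57 cases (38.6%) and rose in 2 (3.51%). Nip7, a factor of the large subunit, had 7518, 6380.1 and 6146 in Dcr KO, against 19345 and 24870.4 in Dcr WT. Aminoacyl-tRNA synthetase genes fell in 11 of 32 cases (34.4%) and rose in 1 (3.125%). Replication and licensing genes fell in 19 of 50 cases (38%) and rose in 5 (10%). Of the 19, 5 were called in every fit that left out 1 library, below the 48.9% of all mRNAs called lower. Pcna, the sliding clamp, had 24841, 24240.4 and 22136 in Dcr KO, against 43926 and 41319 in Dcr WT.

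**Figure D4:**
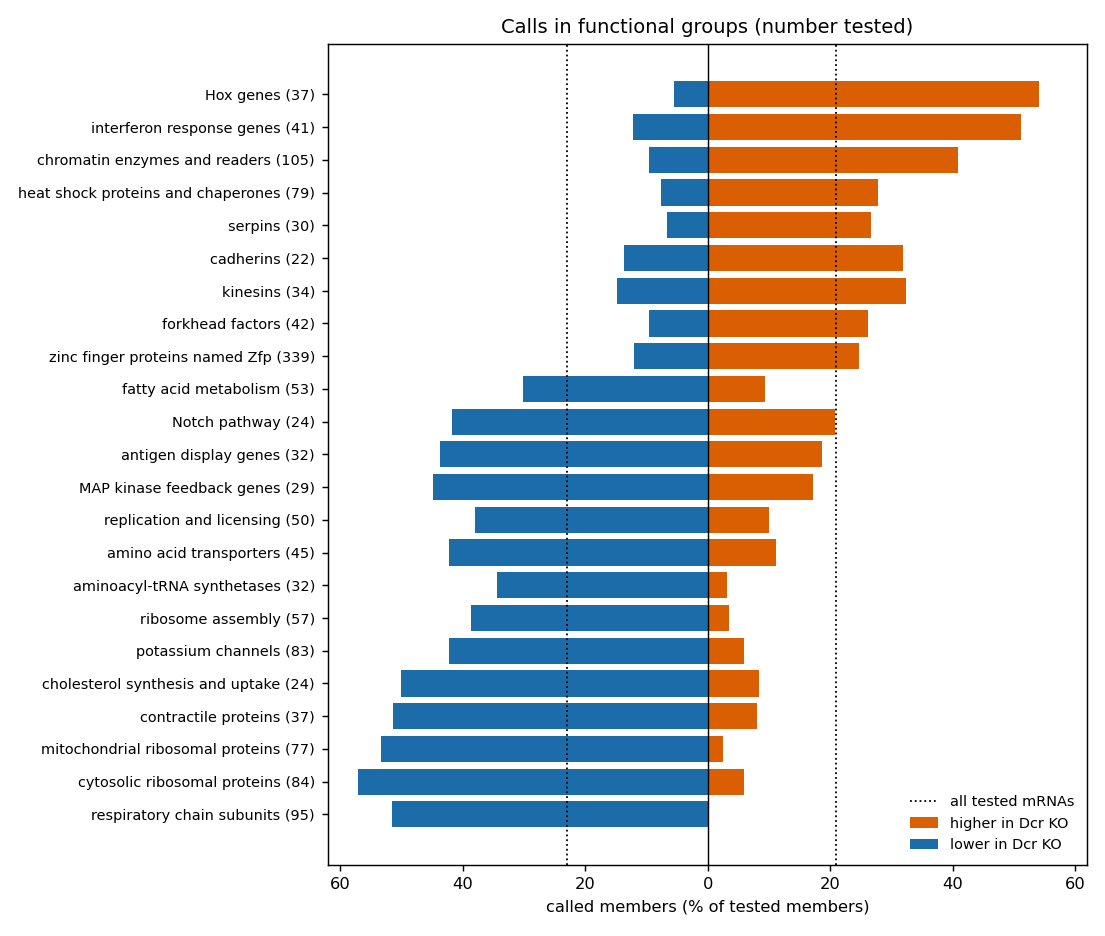
Share of tested members called higher (orange, right) or lower (blue, left) in Dcr KO for 23 groups of at least 20 tested genes. The groups come from both ends of the order by share higher minus share lower. Some drawn at the upper end have a narrower imbalance than some left out, such as collagens. Dotted lines mark the shares of all tested mRNAs (20.9% and 22.9%). Hox genes and interferon response genes stand at the upper end (54.1% and 51.2% higher), and the respiratory chain, with 51.6% lower, at the lower end.

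**Figure D5:**
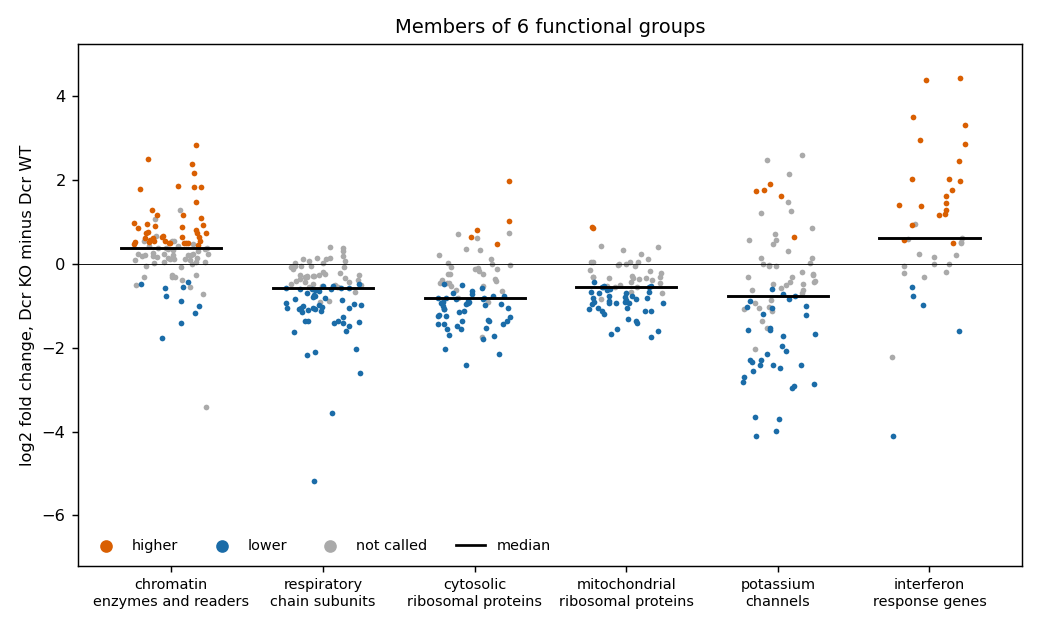
Log2 fold change, Dcr KO minus Dcr WT, of every tested member of 6 groups, with 1 point per gene coloured by its call and a bar at the group median. Medians of the cytosolic ribosomal, mitochondrial ribosomal and respiratory groups are −0.80, −0.56 and −0.58, with single genes such as Ndufa4l2 and Rps23 far from them. Potassium channels spread widely around −0.77 and interferon response genes around 0.62.

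Interferon response genes, which cells switch on against viruses and other foreign nucleic acid, rose in 21 of 41 cases (51.2%) and fell in 5 (12.2%). Of these, 15 and 3 were called in every fit that left out 1 library. Zbp1, a sensor of Z-form nucleic acids, had 8328, 12141 and 8184 in Dcr KO, against 465 and 428 in Dcr WT. Rsad2, the antiviral enzyme viperin, had 611, 923 and 1108 in Dcr KO, against 32.2 and 46.6 in Dcr WT. Irf2, a factor that competes with Irf1 on the same sites, had 1692, 1407 and 2288 in Dcr KO, against 161 and 194 in Dcr WT. The log2 fold changes of the 3 genes were 4.39 ± 0.20, 4.43 ± 0.31 and 3.31 ± 0.24 (SE; limma adjusted p = 1.01e-05, 3.45e-05 and 3.63e-05). Ifih1, the double-stranded RNA sensor MDA5, had 243, 428 and 346 in Dcr KO, against 18.1 and 43.8 in Dcr WT, with a log2 fold change of 3.50 that became 2.89 on leaving out Dcr WT library 1 and 4.12 on leaving out library 2. Irf8, a factor of myeloid cells, fell and had 31.1, 47.4 and 55.9 in Dcr KO, against 746 and 782 in Dcr WT.

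Antigen display genes fell more often, 14 of 32 (43.8%) against 6 that rose (18.8%). Nlrc5, the activator of class I genes, had 35.5, 61.1 and 67.3 in Dcr KO, against 433 and 574 in Dcr WT. H2-DMa, a chaperone chain for class II loading, had 154, 112 and 161 in Dcr KO, against 941 and 700.2 in Dcr WT. Genes for the making and loading of peptides were split, with Tap1 lower and Erap1 and Tapbp higher. Erap1, which trims peptides for class I, had 6523, 8837 and 5868 in Dcr KO, against 847 and 825 in Dcr WT. Tapbp, tapasin, had 33279, 36920.4 and 31197 in Dcr KO, against 6172 and 8377 in Dcr WT. Complement and coagulation genes were split, with 8 higher and 8 lower of 31 (25.8% each, against 20.9% and 22.9% of all mRNAs). Cd55, which speeds the decay of complement enzymes, had 5909, 7674 and 7904 in Dcr KO, against 1036 and 1852 in Dcr WT. Cfp, properdin, had 6881, 6027 and 5745 in Dcr KO, against 1263 and 974 in Dcr WT. Plau, urokinase, was lower and had 87.0, 75.6 and 74.2 in Dcr KO, against 455 and 726 in Dcr WT.

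Germ cell genes fell in 16 of 46 cases (34.8%) and rose in 9 (19.6%). Rhox6 and Rhox9, X-linked homeobox genes of germ cells and placenta, rose. Rhox9 had 5617, 6485 and 5912 in Dcr KO, against 390.3 and 682 in Dcr WT. Rhox6 had 6460.0, 6478 and 6525 in Dcr KO, against 424 and 1033 in Dcr WT, and its log2 fold change of 3.29 became 2.65 on leaving out Dcr WT library 1 and 3.93 on leaving out library 2. Tex11, a meiosis gene of the X chromosome, had 4496, 5203 and 4365 in Dcr KO, against 639.7 and 875 in Dcr WT. Sohlh2, a helix-loop-helix factor of early germ cells, had 15811, 15657 and 21549 in Dcr KO, against 3348 and 2153 in Dcr WT. Other genes for piRNA and meiosis proteins were called in both directions, with Smc1b, Ddx4 and Tdrd7 among those higher. Piwil1, a PIWI protein that binds piRNAs, was lower and had 87.8, 73.3 and 48.2 in Dcr KO, against 467 and 348 in Dcr WT. Tdrd5, a tudor-domain protein of germ granules, had 449, 459.8 and 321 in Dcr KO, against 2161 and 2376 in Dcr WT. Mei1, of meiotic recombination, had 42.6, 31.3 and 27.6 in Dcr KO, against 191 and 309 in Dcr WT. Nlrp4c, an oocyte gene, had 54.1, 13.8 and 11.5 in Dcr KO, against 513 and 385 in Dcr WT, and without line 1 its log2 fold change was −5.04 in place of −4.36. Of 5 germ cell markers, 1 rose and 3 fell, and their summed count was 6815 to 7834 in Dcr KO and 6874 and 6929 in Dcr WT. Without Ddx4, the highest of them, it was lower in every Dcr KO line, at 3027 to 3294 in Dcr KO, against 4391 and 4734 in Dcr WT.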

How the data were processed

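RNA of 3 Dcr KO lines and 2 Dcr WT libraries was compared. Per the submitters' processing notes, TopHat, Bowtie and DESeq and the build mm9 were used, with no role or version given; the sources used here name no counting tool, gene models or use of strand. The authors deposited a normalised signal per feature, and 100% of the values are whole reads divided by 1 factor per library (within 0.01 read), as the values themselves show. The number of value columns left without a sample was 0. Their names end in a suffix that nothing explains and that differs for Dcr WT library 1. RefSeq identifiers were matched to symbols, neighbours and promoters in RefSeq tables of GRCm38.p6, whose coordinates are given only for printed sequences.

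The test was limma-trend (limma 3.58.1, R 4.3.3) on log2(value + 1) for the 42358 features that reached 1 in 2 or more libraries. P-values were adjusted by the Benjamini-Hochberg method over all of them, with 0.05 as the threshold. Fold changes are on this scale, which understates those of genes near 0. As alternatives, edgeR 4.0.16 (quasi-likelihood) and DESeq2 1.42.0 were run on the recovered reads, beside other scalings, filters and fits without each library. edgeR called 3390 mRNAs higher and 3818 lower. Data were simulated at these depths with 50 genes for each change, all of them mRNAs with a mean of at least 100. No other feature was changed. On these data limma recovered 100% and 96% of 4-fold decreases and increases and 46% and 50% of 2-fold ones. It called 0.0284% of unchanged features. In the real data 7171 features were called higher and 6273 lower, which moves the cut-off on p, so these shares need not hold there. The 74 functional groups are symbol families or lists by role; a family can hold genes that share only the start of a symbol. The mRNAs described, the groups and the marker lists were chosen with earlier results of these data known. Genes were named by a rule: Dicer1, the 12 strong and steady mRNAs with the widest step in each direction, up to 4 strong and steady members of a described group per direction (otherwise up to 2 called members with the smallest adjusted p), and up to 3 markers. Some genes and 1 functional group are not reported here. The Dcr KO lines are separate lines, but no label says that the Dcr WT libraries came from separate cultures, so the p-values reflect only how these samples spread. At these depths, values of a few units rest on a few reads.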

Additional observations from a re-analysis of the deposited data

How the results depend on the processing

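No paired analysis was possible because the labels number the Dcr KO lines 1, 3 and 4 and the Dcr WT libraries 1 and 2, which share a single number. Seed matches in mRNAs were not run, since no transcripts were given. Without the intensity trend, limma called 1600 mRNAs higher and 1995 lower, and 0 and 0 met the strong and steady rule, although 849 of the 856 mRNAs were still called with all 5 libraries; the cause was not tested. In fits that left out 1 library, 2116 to 2854 mRNAs were higher and 2428 to 2876 lower, with the fewest without Dcr KO line 3 (2116 and 2428) and 2274 higher without line 1, and the strong and steady counts, read in the 4 libraries left, were 401 to 439 higher and 501 to 588 lower. Apart from the fit without trend, all 856 were called in the same direction under each alternative run. For the fits that left out 1 library, the rule that defines the set required these calls. The counts meeting the rule, again apart from the fit without trend, ran between 297 and 439 higher and 325 and 588 lower. The share of calls that were higher was 47.7%, and 39.5% with upper quartile scaling to 52.3% without Dcr WT library 1. The median log2 fold change of all mRNAs moved from −0.06 to −0.14 with total count scaling and −0.16 with upper quartile scaling. Of 2220 functional group counts over all alternatives, 1901 stayed within 1.5 times; in nuclear receptors, mitosis genes and ubiquitin adaptors the balance of calls turned round under some scaling. Among 370 named genes, 10 of 5549 values changed sign, all of them markers not called in limma: Tubb3 had −0.08 with total count scaling, −0.10 with upper quartile scaling, −0.04 in edgeR and −0.05 in DESeq2. Over the fits without 1 library, Tubb3 ran between −0.48 and 0.49 (and at −0.17 without Dcr KO line 1), Krt8 between −0.34 and 0.18, Dazl between −0.09 and 0.41 and Esrrb between −0.05 and 0.63. Depth limits mainly the mRNAs at a few reads, such as those near 0 in Dcr WT library 1, where 1 read was worth 2.01.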

Other observations

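Some strong and steady mRNAs of the same direction came from neighbouring genes. Among 16077 tested genes with a place in the RefSeq annotation, 26 runs of adjacent genes held 58 of the 377 placed mRNAs that were higher, and 24 runs held 53 of the 464 that were lower. The longest runs of 4 genes were Hoxa5, Hoxa6, Hoxa7 and Hoxa9, which were higher, and Pth1r, Myl3, Prss42 and Prss44, which were lower. Runs of 3 genes included Radx, Rnf128 and Tbc1d8b (higher), and Acot2, Acot1 and Acot3, Rnd1, Ccdc65 and Fkbp11, and Slc9a5, Plekhg4 and Kctd19 (lower). Families that lie as copies beside each other account for some pairs, such as Saa1 with Saa2, Padi3 with Padi1, Aqp5 with Aqp6, Dlx3 with Dlx4 and Tmem176b with Tmem176a. Others join genes of unlike families, such as Adgrf5 with Pla2g7, Ccdc169 with Sohlh2, Notch3 with Ephx3 and Slc22a18 with Phlda2. No test was made of how often runs of this kind arise, and reads that span overlapping neighbours could be counted for both.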
